A study of Mus musculus with 5 samples.

Results

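The enzymes described here are the glucuronosyltransferases (UGTs) and sulfotransferases (SULTs) of mouse liver. They were chosen by gene name on the array: every non-control probe named as a Ugt1a, Ugt2a, Ugt2b or Ugt3a gene or as a numbered Sult gene. The rule gave 35 of the 36870 gene names on the array, 14 UGTs on 18 probes and 21 SULTs on 32 probes. Livers of female BALB/c mice aged 6 weeks were collected 6 hr after an intraperitoneal dose of vehicle, troglitazone (TGZ, 300 mg/kg), TGZ (300 mg/kg) with buthionine sulfoximine (BSO, 700 mg/kg), rosiglitazone (RGZ, 300 mg/kg), or RGZ (300 mg/kg) with BSO (700 mg/kg). No group received BSO alone. RNA of 6 animals was pooled per group and hybridised to 1 single-colour Agilent array, so each group is 1 pool, no difference between groups could be tested, and the values carry no spread between animals. The single vehicle array enters all 4 comparisons with vehicle, so the treated groups do not repeat one another there.

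UGTs sit in the membrane of the endoplasmic reticulum and join glucuronic acid, carried as UDP-glucuronic acid, to drugs, bilirubin, steroids and bile acids. Cytosolic SULTs transfer a sulfonate group from the donor PAPS to phenols, amines, steroids and bile acids. Both kinds of conjugate are more soluble in water and leave the hepatocyte through ABC transporters. TGZ and RGZ are thiazolidinediones that activate the nuclear receptor PPAR gamma. TGZ carries a chroman group with a free phenol, which RGZ lacks, and this phenol is where TGZ is sulfonated and glucuronidated. The study's title concerns liver injury by TGZ. BSO blocks glutathione synthesis.

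Signal is given as scaled log2 signal, the log2 of the spot's background-subtracted intensity minus the 75th percentile of its array, so 0 is a bright probe and a gene is compared with itself only. All 14 UGTs were well above background on all 5 arrays by the scanner software's call. Of the SULTs, 17 were well above background on all 5 arrays. Sult3a2 was so with RGZ and BSO plus RGZ only, and Sult2b1, Sult6b1 and Sult6b2 were so on none. Across arrays 51.9% to 55.2% of the 56605 probes were well above background. A 95% interval below comes from the software's error of the spots compared, typically reaches 0.40 on the log2 scale to either side, and covers spot measurement only. A gene is counted as different when it differed by at least 2-fold.

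The Ugt1a probes need to be read by position before their values. Genes of this locus have first exons of their own spliced to shared last exons, so a probe in the shared end reads several enzymes at once. The array has 5 probes there, all on chromosome 1 (build mm9, plus strand). The first lies at 89952780 to 89952839 and is named for Ugt1a10, with Ugt1a9 also in its transcript list. The second, at 90004249 to 90004308, is named for Ugt1a6b alone. Probes 3 and 4, at 90114900 to 90114959 and 90115493 to 90115552, are also named for Ugt1a6b but start 110651 bases and more after it, near the end of the locus. The fifth is named for Ugt1a6a and lies at 90116514 to 90116573, starting 1021 bases after the start of probe 4. Its transcript list holds Ugt1a6a, Ugt1a1, Ugt1a10 and Ugt1a7c, so it is not a measure of Ugt1a6a alone. These lists hold at most 4 transcripts. In the RefSeq gene table (GRCm38.p6), 7 of 9 Ugt1a genes share the farthest end and 2, Ugt1a6b and Ugt1a8, end 1004 bases earlier. Which exon each probe lies in was not read, since no annotation of the files' build was used here, and the list of probe 3 holds Ugt1a6b only. The sequences are shown because the probes disagree, the first 3 whole and the last 2 by their first 30 bases.
Ugt1a10, probe 1: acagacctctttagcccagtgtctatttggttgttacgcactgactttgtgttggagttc
Ugt1a6b, probe 2: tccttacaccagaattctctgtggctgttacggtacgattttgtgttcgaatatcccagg
Ugt1a6b, probe 3: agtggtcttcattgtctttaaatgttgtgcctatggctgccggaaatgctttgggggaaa
Ugt1a6b, probe 4, first 30 bases: accaaagtatgttctaaggcaagtacatct
Ugt1a6a, probe 5, first 30 bases: catttcagattcaagctatatattctgacc

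With TGZ, most UGT signals lay near vehicle and the farthest Ugt1a probe did not. The probe named for Ugt1a6a, a phenol-conjugating enzyme, read -0.83 with vehicle, -3.13 with TGZ, -2.33 with BSO plus TGZ, -0.81 with RGZ and -0.79 with BSO plus RGZ. Both TGZ arrays are low and the other 3 are level. It was 4.94-fold lower with TGZ than with vehicle (interval 3.43 to 7.10) and 2.84-fold lower with BSO plus TGZ (2.09 to 3.85). With RGZ and BSO plus RGZ the log2 differences were 0.02 and 0.04. The nearest probes upstream did not show this. Probe 3 was 0.33 and probe 4 was 0.32 above vehicle with TGZ, and 0.19 each with BSO plus TGZ, all with intervals that include 0. Probe 1 was at -0.35 with TGZ and -0.17 with BSO plus TGZ. Probe 2 was at -0.15 and -0.34. Probes of this locus thus disagree, and which Ugt1a transcripts or transcript ends were lower was not tested. They also differ in brightness. With vehicle, probes 1 to 4 read -0.31, 0.93, 6.10 and 8.39, against -0.83 for the Ugt1a6a-named probe. Its signal of -3.13 with TGZ is dim, below the -2.43 of Sult3a2 with BSO plus RGZ, though well above background by the software's call. What part of the locus signal the Ugt1a6a-named probe stands for was not tested. With normexp background correction and quantile normalization the fifth probe was at -0.996 with TGZ and -0.81 with BSO plus TGZ, just short of 2-fold. With spike-in scaling probes 3 and 4 turned to -0.12 and -0.13 with TGZ, while the fifth was at -2.75.

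**Figure D1:**
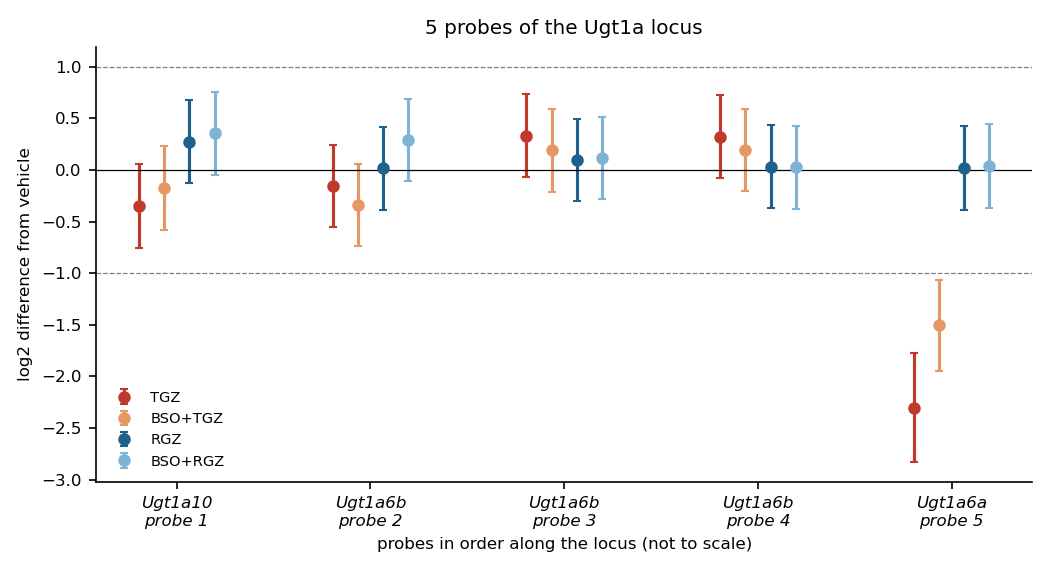
Log2 difference from vehicle (vertical axis) for the 5 probes of the Ugt1a locus in genomic order (horizontal axis, not to scale), with 1 point per treated array and 95% intervals of spot measurement error. Dashed lines mark 2-fold. Probes 1 to 4 stay within 2-fold with every treatment, and the fifth is at -2.30 with TGZ and -1.51 with BSO plus TGZ.

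In the comparison of TGZ with vehicle, which asks what TGZ did within 6 hr, 19.6% of the 21316 genes with a value were at least 2-fold different, 10.1% higher and 9.48% lower. Of the 14 UGTs, 1 was (lower, the Ugt1a6a-named probe), and of 17 SULTs with a value 4 were, Sult1e1 higher and Sult1c2, Sult3a1 and Sult5a1 lower. The median log2 difference was -0.22 over the UGTs and 0.24 over the SULTs, against 0.02 over all genes. With spike-in scaling, which moved all genes by -0.45 in this comparison, these medians were -0.67 and -0.21, so the SULT median has no settled side. Among the UGTs, 10 lay below vehicle and 4 above. Ugt2b35 came nearest to 2-fold of the rest, at -0.80.

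With BSO plus TGZ, where 14.2% of 21430 genes differed by at least 2-fold from vehicle (8.31% higher, 5.90% lower), 1 UGT and 3 of 17 SULTs did. They were the Ugt1a6a-named probe, Sult1c2 and Sult3a1 on the lower side and Sult1e1 on the higher. Sult5a1, at -0.82, and Sult2a7, at -0.92, were short of 2-fold. The median was -0.31 over the UGTs and 0.10 over the SULTs, against -0.03 over all genes, and the SULT median turned to -0.09 with spike-in scaling and -0.10 with normexp (-0.05 with the mean over probes).

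With RGZ, where 3.32% of 21354 genes differed by at least 2-fold from vehicle (1.65% higher, 1.67% lower), none of the 14 UGTs and none of the 18 SULTs with a value did. The UGTs ranged from -0.45 (Ugt2a3) to 0.27 (Ugt1a10). The measured SULTs ranged from -0.79 (Sult2a8) to 0.41 (Sult2a3), and Sult3a2 was at least 1.56-fold higher. The median was -0.28 over the UGTs and -0.16 over the SULTs, against -0.03 over all genes. With BSO plus RGZ, where 6.83% of 21209 genes differed from vehicle (3.05% higher, 3.78% lower), 1 UGT and 6 of 18 SULTs did. Ugt2b35, Sult1e1 and Sult3a2 were higher, and Sult1b1, Sult1c2, Sult2a7 and Sult2a8 were lower. The medians were 0.03 over the UGTs and -0.22 over the SULTs, against -0.05 over all genes.

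**Figure D2:**
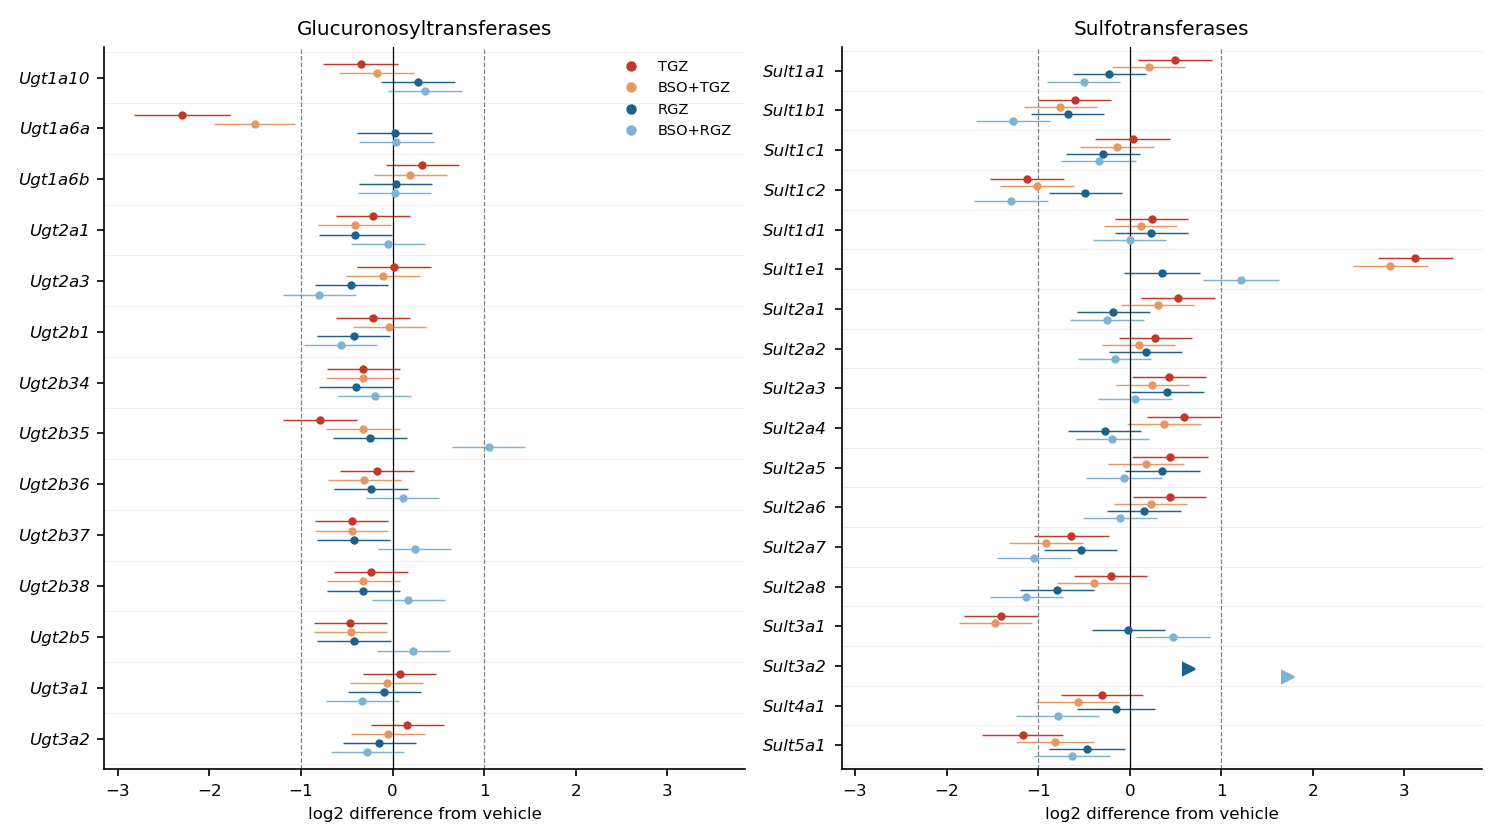
Log2 difference from vehicle (horizontal axis) of every UGT (left) and SULT (right) with a value, 1 point per treated array with its 95% interval of spot measurement error, dashed lines at 2-fold. Triangles for Sult3a2 are lower bounds. Sult1e1 stands farthest to the right at 3.12 with TGZ, and the Ugt1a6a-named probe farthest to the left at -2.30.

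Sult1e1, the oestrogen sulfotransferase, which inactivates oestradiol with high affinity, had the widest range of the members well above background on all 5 arrays. Its scaled log2 signal was -1.55 with vehicle, 1.57 with TGZ, 1.30 with BSO plus TGZ, -1.19 with RGZ and -0.33 with BSO plus RGZ. The TGZ arrays are high, vehicle and RGZ are low, and BSO plus RGZ lies between them. It was 8.68-fold higher with TGZ than with vehicle (interval 6.52 to 11.5), 7.18-fold higher with BSO plus TGZ (5.40 to 9.55) and 2.33-fold higher with BSO plus RGZ (1.75 to 3.1). With RGZ alone the log2 difference was 0.35 (-0.06 to 0.77). The difference with TGZ stayed past 2-fold in all 7 alternative settings (2.36 to 3.13 on the log2 scale), and that with BSO plus RGZ in 6 of 7, being 0.76 with normexp. Sult1e1 has 1 probe, above background on all 5 arrays, so the settings on the filter and on the mean over probes could not change it. The value table moved all genes by only 0.001 with TGZ and -0.003 with BSO plus RGZ. The probe lies on chromosome 5 at 88005187 to 88005246 (mm9, minus strand). Marker lists of other cells were also at other levels on the TGZ arrays. Over all genes, 10.1% were at least 2-fold higher than vehicle with TGZ, 8.31% with BSO plus TGZ, 1.65% with RGZ and 3.05% with BSO plus RGZ. Of 8 neutrophil markers, 6 were at least 2-fold higher than vehicle on each TGZ array, and of 7 with a value 3 were on the RGZ array and 4 on the BSO plus RGZ array. Their summed linear signal, in multiples of the 75th percentile, was 109 with vehicle, 255 with TGZ, 256 with BSO plus TGZ, 119 with RGZ and 125 with BSO plus RGZ, and all 8 were well above background with TGZ. The sum over 6 cholangiocyte markers, of which Krt7 and Epcam were not above background on any array, was 6.22, 13.4, 10.8, 5.35 and 4.34 in the same order. Of its 4 measured genes only Sox9 was past 2-fold higher, at 3.74 with TGZ and 3.45 with BSO plus TGZ. Krt19 of the same list was at least 2-fold lower with RGZ and with BSO plus RGZ. The sum over 7 sinusoidal endothelial markers was 66.8 with vehicle, 45 with TGZ, 59.6 with BSO plus TGZ, 62.6 with RGZ and 58.5 with BSO plus RGZ, and over 8 Kupffer cell and macrophage markers it was 56.3, 50.4, 64.7, 59.6 and 54.1. The endothelial list was split: with TGZ Lyve1 and Cdh5 were at least 2-fold higher and Clec4g and Kdr lower (median -0.06). With BSO plus TGZ Lyve1 and Cdh5 were higher and Kdr lower (median 0.19). Of the Kupffer cell and macrophage markers only Cd68 was past 2-fold on either TGZ array, higher on both. With RGZ and BSO plus RGZ, Lyve1 and Marco were the only genes of the endothelial list and the Kupffer cell and macrophage list past 2-fold, both higher. The part of these cells in the Sult1e1 signal was not tested. In RNA from whole liver, a change in the number of cells of a type and in the RNA per cell cannot be told apart.

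Sult3a1, an amine sulfotransferase that is more abundant in female than in male mouse liver, was low on both TGZ arrays and near vehicle with RGZ. Its signal was 2.09 with vehicle, 0.69 with TGZ, 0.63 with BSO plus TGZ, 2.08 with RGZ and 2.57 with BSO plus RGZ. Again both TGZ arrays stand together, here low, and BSO plus RGZ is the highest of the 5. The gene was 2.65-fold lower with TGZ than with vehicle (2.01 to 3.50) and 2.77-fold lower with BSO plus TGZ (2.09 to 3.65), and both differences stayed past 2-fold in all 7 alternative settings. The settings on the filter could not change them, since the gene was above background on all 5 arrays. Its second probe gave log2 differences of -1.18, -1.44, 0.20 and 0.63 for the 4 treated groups in that order, each within 0.24 of the first. The probes lie side by side on chromosome 10, at 33599244 to 33599303 and 33599125 to 33599184 (mm9, plus strand). Its neighbour Sult3a2, at 33499545 to 33499604 on the minus strand, was not well above background with vehicle (-4.45), TGZ (-6.0) or BSO plus TGZ (-4.33), and was at -3.52 with RGZ and -2.43 with BSO plus RGZ. It was at least 3.32-fold higher with BSO plus RGZ than with vehicle, and 2.13-fold higher than with RGZ (1.42 to 3.19). This signal is dim, and with normexp these were 0.47 and 0.34 on the log2 scale, short of 2-fold.

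Sult1c2, Sult1b1, Sult2a7, Sult2a8 and Sult5a1 had their highest signal with vehicle. Sult1c2 was at 2.01 with vehicle, 0.89 with TGZ, 1.00 with BSO plus TGZ, 1.53 with RGZ and 0.71 with BSO plus RGZ. It was 2.17-fold lower with TGZ (1.65 to 2.87), 2.02-fold lower with BSO plus TGZ (1.53 to 2.67; -0.92 on the log2 scale with normexp) and 2.46-fold lower with BSO plus RGZ (1.86 to 3.25). RGZ alone, the nearest to vehicle, lay between.

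Sult1b1, which sulfonates thyroid hormone and phenols, was at 2.40, 1.80, 1.64, 1.72 and 1.13 in the order vehicle, TGZ, BSO plus TGZ, RGZ and BSO plus RGZ. All 4 treated arrays are below vehicle and BSO plus RGZ is the lowest, 2.42-fold below (1.83 to 3.19). A second probe of Sult1b1 gave -0.79, -0.95, -0.62 and -1.22 for the 4 treated groups.

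Sult2a7 and Sult2a8 belong to the hydroxysteroid sulfotransferases, the SULT2A enzymes, which conjugate steroids such as dehydroepiandrosterone as well as bile acids. Sult2a8 was at 6.23 with vehicle, 6.02 with TGZ, 5.84 with BSO plus TGZ, 5.44 with RGZ and 5.10 with BSO plus RGZ. Both RGZ arrays are the low ones here, and with BSO plus RGZ the gene was 2.19-fold lower than with vehicle (1.66 to 2.89). Sult2a7 was at 0.11, -0.53, -0.81, -0.43 and -0.94 in the same order, and 2.07-fold lower with BSO plus RGZ (1.56 to 2.74). That value was short of 2-fold with median scaling (-0.94), spike-in scaling (-0.92) and normexp (-0.72). Sult5a1 was at -1.04, -2.21, -1.86, -1.51 and -1.67, lowest with TGZ, at 2.25-fold below vehicle (1.65 to 3.06). It was short of 2-fold with normexp (-0.58) and with the mean over its probes (-0.72).

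**Figure D3:**
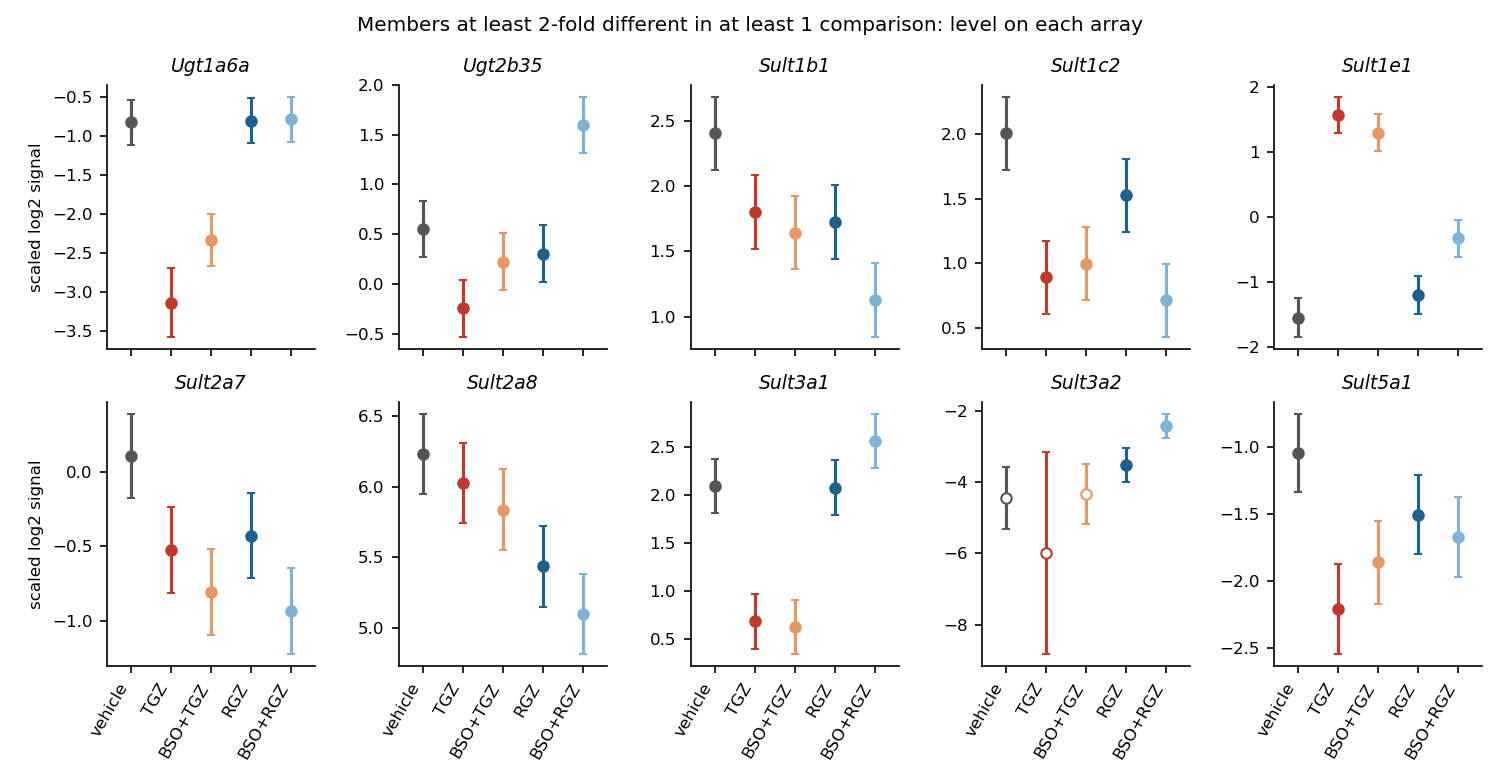
Scaled log2 signal (vertical axis, a separate scale per panel) on each of the 5 arrays (horizontal axis) for the 10 members at least 2-fold different in at least 1 of 8 comparisons. Bars are 95% intervals of spot measurement error, open points are not well above background. Sult1e1 is high and Sult3a1 and the Ugt1a6a-named probe are low on both TGZ arrays, and Ugt2b35 is high at 1.60 with BSO plus RGZ only.

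The other 6 SULT2A members did not follow Sult2a7 and Sult2a8. With TGZ, Sult2a1 to Sult2a6 were all above vehicle by 0.28 to 0.59 (median 0.44), and with BSO plus TGZ all 6 by 0.10 to 0.37 (median 0.24). On the RGZ array 4 of 6 and on the BSO plus RGZ array 1 of 6 lay above vehicle (medians 0.16 and -0.14). None reached 2-fold by the brightest probe of each gene, and the side depends on the scaling. With spike-in scaling 2 of 6 lay above vehicle with TGZ (median -0.01). Under the same scaling 4 of 6 did so with BSO plus TGZ and 3 of 6 with BSO plus RGZ. These are not 6 separate measurements. The transcript list of the probe used for Sult2a6 also holds Sult2a1 and Sult2a5, and that of the Sult2a3 probe also holds Sult2a4. The Sult2a1, Sult2a2 and Sult2a4 probes, all in the chromosome 7 cluster, share 54 of 59 overlaid bases (Sult2a1 and Sult2a2), 51 of 54 (Sult2a1 and Sult2a4) and 47 of 53 (Sult2a2 and Sult2a4), so each can hold signal of the others. The 30 bases below show how little tells them apart, with capitals where the 3 probes differ.
Sult2a1: ttgttGtGtatcttgaatacctAGatGtgg
Sult2a2: ttgttCtAtatcttgaatacctGAatAtgg
Sult2a4: ttgttCtGtatcttgaatacctAGatGtgg

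Sult2a6 has a further, dim probe that was above background on all 5 arrays and whose transcript list holds no other gene. It gave 1.52 with TGZ (0.87 to 2.18) where the brighter probe gave 0.43 (0.03 to 0.83), and 0.19, 0.49 and 0.33 with BSO plus TGZ, RGZ and BSO plus RGZ. The probes agree in side but not in size with TGZ, where the dim one is past 2-fold. With BSO plus RGZ the brighter one was at -0.11. Another dim Sult2a6 probe was above background with TGZ and BSO plus RGZ only, and was at least 0.61 above vehicle with TGZ.

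The other measured SULTs were within 2-fold of vehicle in every group. Sult1a1, the main phenol sulfotransferase of liver, was at 7.29, 7.78, 7.49, 7.06 and 6.78 in the order vehicle, TGZ, BSO plus TGZ, RGZ and BSO plus RGZ, 0.49 above vehicle with TGZ (0.09 to 0.89) and 0.50 below it with BSO plus RGZ (interval -0.90 to -0.10). Its second probe gave 0.47 and -0.46. Sult1d1, a catecholamine sulfotransferase in mice, differed from vehicle by 0.00 to 0.24, and Sult1c1 by -0.34 to 0.03. Sult4a1, best known from brain, was lowest with BSO plus RGZ, at -0.79.

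The 7 Ugt2b genes, whose enzymes conjugate steroids, bile acids and fatty acids among others, lay on one side of vehicle in 3 groups. All 7 were below vehicle with TGZ (median -0.32), all 7 with BSO plus TGZ (-0.32) and all 7 on the RGZ array (-0.40). With BSO plus RGZ 5 of 7 were above it (median 0.17), all but Ugt2b1 and Ugt2b34. These counts were the same with median scaling, with spike-in scaling and with normexp. Most single differences are no larger than the interval of spot error, and the shared vehicle array enters every one of them. The genes lie in a row on chromosome 5 (mm9): 12 members from Ugt2b34 to Sult1e1 within 686398 bases, with Ugt2a3 between Ugt2b37 and Ugt2b38, then Ugt2a1 after the last Ugt2b gene, and Sult1b1, Sult1d1 and Sult1e1 at the far end.

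Ugt2b35 was the Ugt2b gene with the largest differences. It was at 0.55 with vehicle, -0.25 with TGZ, 0.23 with BSO plus TGZ, 0.31 with RGZ and 1.60 with BSO plus RGZ. Only the BSO plus RGZ array is above vehicle, 2.07-fold (1.57 to 2.73; 0.85 on the log2 scale with normexp), and it is 2.45-fold above RGZ (1.86 to 3.23).

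Ugt2b5 was at 6.22, 5.75, 5.76, 5.79 and 6.44 in the same order of arrays, and Ugt2b37 at 4.88, 4.43, 4.43, 4.46 and 5.12. Ugt2b38 was at 7.17, 6.94, 6.86, 6.85 and 7.35, and Ugt2b36 at 5.64, 5.47, 5.33, 5.40 and 5.74. In each of these 4 genes BSO plus RGZ is the highest array, vehicle is next and the other 3 arrays lie close together. BSO plus RGZ lay above vehicle by 0.11 to 0.24, with intervals of spot error that include 0 in all 4. For Ugt2b36 and Ugt2b38 the interval against vehicle includes 0 in every treated group. For Ugt2b5 and Ugt2b37 it excludes 0 on the other 3 arrays. The probes of Ugt2b5 and Ugt2b37 share 46 of 55 overlaid bases, and the transcript list of the Ugt2b36 probe also holds Ugt2b37, so these are not 4 separate measurements.

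The promoters of the same 4 genes, Ugt2b5, Ugt2b36, Ugt2b37 and Ugt2b38, hold a run of 22 identical bases that ends 7 to 24 bases before the annotated start. It was found in 4 of the 32851 mouse promoters of the RefSeq table (0.0122%), each running from 250 bases before to 50 after a start, and these 4 are the ones that hold it. The run was defined as the longest shared by these 4 promoters, so its presence in all 4 was fixed in advance. A run of 22 bases picked in this way is rare for its length, so the low share says nothing about the values. The genes are a set chosen after their values were seen, with BSO plus RGZ the highest array and vehicle next. In these 4 genes the difference between those arrays lies within spot error. Ugt2b35 has the same arrays highest and next, and was not put in the set. Whether the run goes with this order of arrays was not tested. The 100 bases before the start are shown with the shared run in capitals (RefSeq, GRCm38.p6, chromosome 5, minus strand). The promoters are at chr5:87140341-87140440 for Ugt2b5, chr5:87092556-87092655 for Ugt2b36, chr5:87254789-87254888 for Ugt2b37 and chr5:87424204-87424303 for Ugt2b38.
Ugt2b5: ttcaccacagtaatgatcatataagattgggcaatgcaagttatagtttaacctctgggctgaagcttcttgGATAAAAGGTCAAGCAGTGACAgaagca
Ugt2b36: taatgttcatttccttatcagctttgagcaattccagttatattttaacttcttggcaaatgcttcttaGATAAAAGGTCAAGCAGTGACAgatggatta
Ugt2b37: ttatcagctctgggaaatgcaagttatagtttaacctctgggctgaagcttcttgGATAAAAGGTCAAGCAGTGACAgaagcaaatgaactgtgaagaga
Ugt2b38: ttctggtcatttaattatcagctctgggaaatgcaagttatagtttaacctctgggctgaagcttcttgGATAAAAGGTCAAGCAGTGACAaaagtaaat

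Ugt2b35 shares at most 14 bases in a row with any of these 4, and Ugt2b1 and Ugt2b34 at most 11. Ugt2b5, Ugt2b37 and Ugt2b38 share longer runs among themselves, of 62 to 82 bases. The shared run is a description of these letters, not of a bound factor. Of all members, 29 of 35 matched a RefSeq promoter, 12 UGTs and 17 SULTs.

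**Figure D4:**
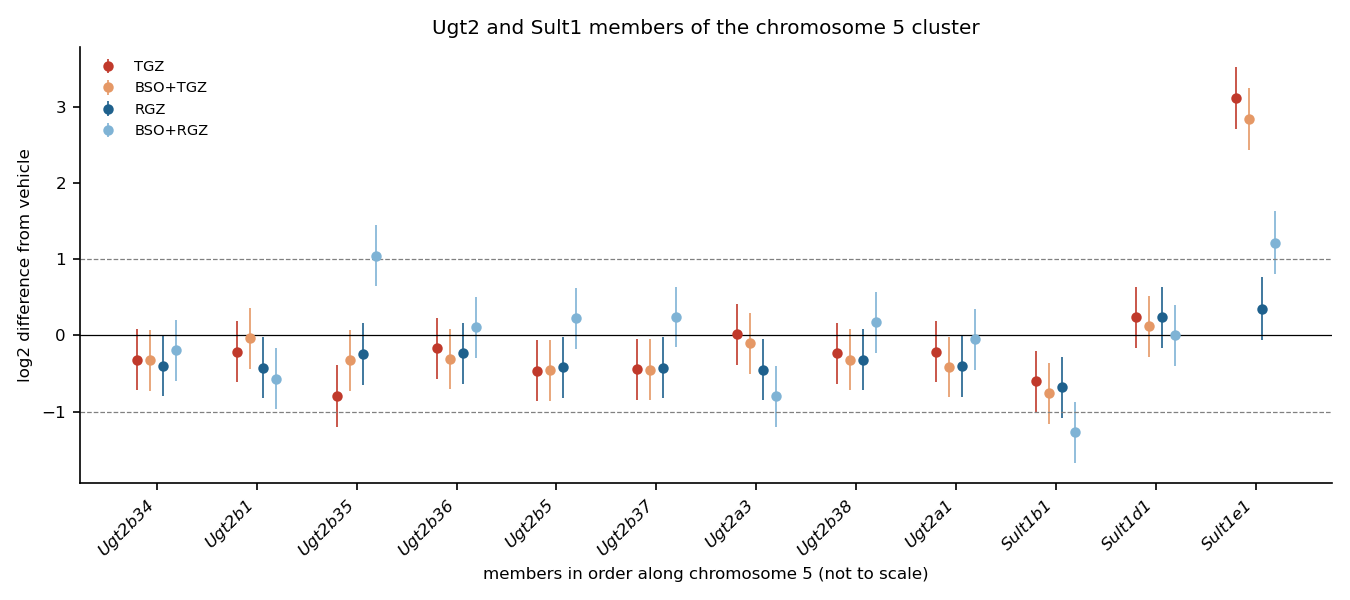
Log2 difference from vehicle (vertical axis) for the 12 members on chromosome 5 in genomic order (horizontal axis, not to scale), 1 point per treated array with 95% intervals of spot measurement error and dashed lines at 2-fold. BSO plus RGZ lies above the other 3 treatments in Ugt2b35, Ugt2b36, Ugt2b5, Ugt2b37 and Ugt2b38, and Sult1e1 at the end of the row is at 3.12 with TGZ.

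The other UGTs stayed within 2-fold of vehicle in every group. Ugt2a3 was at 5.34 with vehicle, 5.36 with TGZ, 5.24 with BSO plus TGZ, 4.89 with RGZ and 4.54 with BSO plus RGZ, lower on both RGZ arrays and 0.80 below vehicle on the last (interval -1.20 to -0.40). Ugt2a1, an enzyme first known from nasal epithelium, differed from vehicle by -0.41 to -0.05. Ugt2b1 was 0.57 below vehicle with BSO plus RGZ (-0.97 to -0.17). Ugt3a1 and Ugt3a2, of the family that uses other sugar donors, differed by -0.33 to 0.16.

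TGZ and RGZ were given at the same dose in mg/kg and for the same time. Whether this matched them in exposure or potency was not tested. Their readouts are set side by side as 2 pairs: the compounds alone and the compounds with BSO. Of 21515 genes with a value, 17.6% differed by at least 2-fold between TGZ and RGZ alone, 9.23% higher and 8.39% lower with TGZ. Of the members, 1 of 14 UGTs and 2 of 18 SULTs did. The Ugt1a6a-named probe was 5.01-fold lower with TGZ than with RGZ (3.48 to 7.21), Sult1e1 6.80-fold higher (5.13 to 9.0) and Sult3a1 2.63-fold lower (1.99 to 3.47). Short of 2-fold, Sult2a4 was 0.86 above (0.46 to 1.26), and Ugt1a10 was at -0.62 (-1.03 to -0.21). With BSO beside each compound, 13.6% of 21362 genes (8.31% higher and 5.26% lower in the TGZ group), 2 of 14 UGTs and 3 of 18 SULTs differed. The Ugt1a6a-named probe was 2.92-fold lower in the TGZ group (2.16 to 3.96), Ugt2b35 2.59-fold lower (1.96 to 3.42) and Sult3a1 3.84-fold lower (2.91 to 5.06), Sult3a2 was at least 3.11-fold lower, and Sult1e1 was 3.09-fold higher (2.34 to 4.08). Sult3a2 was at -0.50 on the log2 scale and the Ugt1a6a-named probe at -0.84 with normexp, short of 2-fold. Many members did not differ between the compounds beyond spot error. Sult1d1 differed by 0.00 (-0.40 to 0.40), Sult2a3 by 0.02 (-0.39 to 0.42), Ugt2b5 by -0.04 (-0.44 to 0.36) and Ugt2b36 by 0.07 (-0.33 to 0.47) between TGZ and RGZ. By spot error alone, these intervals leave room for differences of up to about 0.47 on the log2 scale in either direction. They do not cover the choice of scaling, which can move these members farther than that. With spike-in scaling, which moved all genes by -0.54 between TGZ and RGZ, all 7 Ugt2b genes were lower with TGZ than with RGZ, against 3 of 7 with 75th percentile scaling and 6 of 7 with normexp.

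The effect of added BSO was taken beside each compound. Between BSO plus TGZ and TGZ, 2.06% of 20862 genes (1.56% higher, 0.494% lower) and no member differed by at least 2-fold, and the Ugt1a6a-named probe came nearest at 0.80 (0.25 to 1.35). Between BSO plus RGZ and RGZ, 1.25% of 21265 genes differed by at least 2-fold (0.522% higher, 0.724% lower), and among members Ugt2b35 and Sult3a2 did, both higher with BSO. Of the 7 Ugt2b genes, 6 were higher with added BSO beside RGZ, by a median of 0.49 over the 7, with Ugt2b5 at 0.65 (0.25 to 1.05) and Ugt2b37 at 0.66 (0.26 to 1.06). Beside TGZ the median over the 7 was -0.00, and 0.26 with spike-in scaling. Sult1e1 was 0.87 higher (0.46 to 1.27) and Sult1c2 0.81 lower (interval -1.22 to -0.41) with added BSO beside RGZ. The difference between the BSO effects can be given for 31 members. For Sult1e1 it was -1.14 (-1.71 to -0.57), as the effect beside TGZ minus that beside RGZ, for Ugt2b35 -0.82 (-1.39 to -0.25), for Sult1c2 0.92 (0.35 to 1.49) and for the Ugt1a6a-named probe 0.78 (0.09 to 1.46). The interval excluded 0 by spot error for these and for Ugt2b37, Ugt2b38 and Ugt2b5. The share of all genes whose interval excluded 0 was not computed. A difference of at least 2-fold, which is another threshold, was seen in 3.19% of all 18666 genes and among members in Sult1e1 only.

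**Figure D5:**
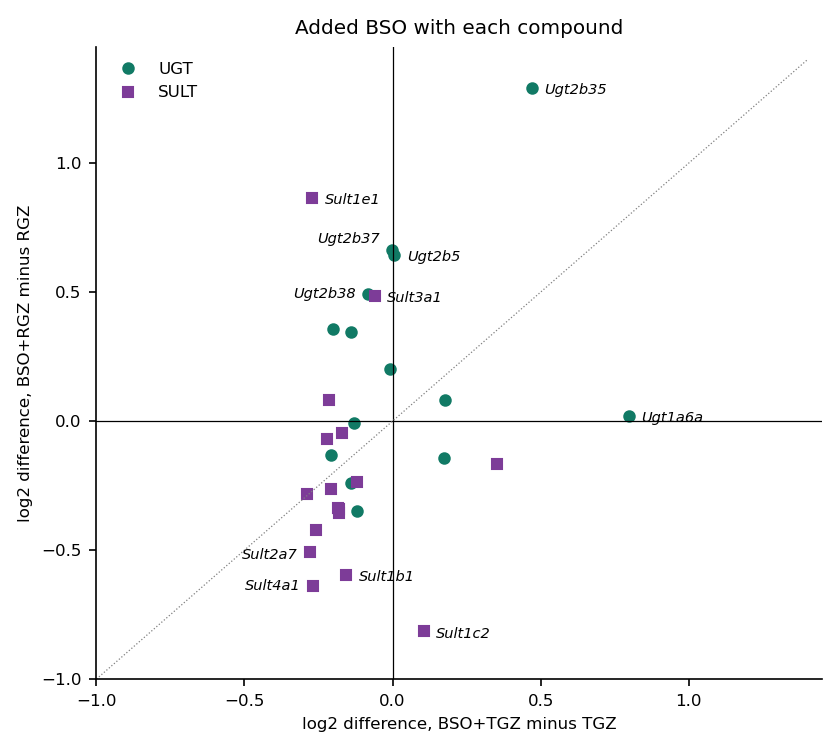
Log2 difference made by added BSO beside TGZ (horizontal axis) and beside RGZ (vertical axis), 1 point per UGT (circles) or SULT (squares) that was well above background on all 4 arrays. The dotted line marks equal effects. Ugt2b35 is at 0.47 and 1.29, Sult1e1 at -0.27 and 0.87, and Sult1c2 at 0.11 and -0.81.

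The genes around conjugation were listed by role. Of 10 genes that supply UDP-glucuronic acid, none was at least 2-fold different from vehicle in any group. Over all genes, 19.6% were with TGZ, 14.2% with BSO plus TGZ, 3.32% with RGZ and 6.83% with BSO plus RGZ. With BSO plus RGZ, Ugdh, which makes UDP-glucuronic acid, was at 0.92, the transporter gene Slc35d1 at 0.89 and Entpd5 at 0.93. With spike-in scaling 3 of the 10 passed 2-fold there, where 901 genes of the whole array were higher and 578 lower. Of 10 genes of PAPS supply and sulfate handling, 1 was higher and 2 lower with TGZ, and the same 3 genes with BSO plus TGZ. Over all genes, 10.1% were higher and 9.48% lower with TGZ, and 8.31% and 5.90% with BSO plus TGZ. Papss1, a PAPS synthase, was at -1.64 and -1.29, the sulfate transporter gene Slc26a1 at -1.62 and -1.26, and Slc35b3, a PAPS transporter of the Golgi, at 1.28 and 1.29. With spike-in scaling Slc35b3 was no longer past 2-fold with TGZ, where none of the list was higher and 4 were lower. With RGZ none differed, and with BSO plus RGZ the second PAPS synthase gene Papss2 was at -1.21 and the sulfate transporter gene Slc26a2 at 1.07. In that last comparison 3.05% of all genes were higher and 3.78% lower.

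Of 8 genes for hydrolysis of conjugates, Gusb, the lysosomal beta-glucuronidase, was at 1.02 and Sumf2, a paralogue of the sulfatase-modifying factor, at -1.99 with TGZ, and Sumf2 at -1.14 with BSO plus TGZ. The shares over all genes were 10.1% higher and 9.48% lower with TGZ, and 5.90% lower with BSO plus TGZ. With RGZ and BSO plus RGZ none of the 8 was past 2-fold. Of the 6 exporters of conjugates none was past 2-fold against vehicle, and Abcc4 came nearest, at 0.94 with TGZ. The shares over all genes past 2-fold were 19.6% with TGZ, 14.2% with BSO plus TGZ, 3.32% with RGZ and 6.83% with BSO plus RGZ.

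Of 22 regulators of conjugating enzymes, 9 were past 2-fold with TGZ, 2 of them higher and 7 lower, where 10.1% of all genes with a value were higher and 9.48% lower. With BSO plus TGZ, Cebpb was higher at 1.82 and Esrrg lower at -1.15, on the RGZ array Esrrg was at -2.36, and on the BSO plus RGZ array Esrrg was at -3.25 and the dioxin receptor gene Ahr at -1.12. Over all genes, 8.31% were higher and 5.90% lower with BSO plus TGZ, 1.67% lower with RGZ and 3.78% lower with BSO plus RGZ. The counts with TGZ were 1 higher and 9 lower with spike-in scaling and 2 and 5 with normexp. With TGZ, Cebpb was at 2.23 and Arnt at 1.25. Among the lower genes, the bile acid receptor gene Nr1h4 was at -1.48, Nfe2l2, which encodes NRF2, at -1.24, Nr1h3 at -1.13, Foxa1 at -1.02, and Esrrg at -1.21. The xenobiotic receptor genes Nr1i2 (PXR) and Nr1i3 (CAR) were at 0.40 and -0.34 with TGZ and within 0.61 of vehicle in every group. Of 7 genes listed as receptor targets, not all of them of PXR or CAR, only Cyp1a1, a target of the dioxin receptor, was past 2-fold, at -1.22 with RGZ. The CAR and PXR targets Cyp2b10 and Cyp3a11 were within 0.55 of vehicle in every group.

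The samples carried the markers of their labelled tissue. All 9 hepatocyte markers were well above background on all arrays, with a summed signal of 6773 with vehicle, 8550 with TGZ, 7441 with BSO plus TGZ, 6119 with RGZ and 6150 with BSO plus RGZ. Of 7 genes more abundant in female liver, as the SULT2A and SULT3A genes are known to be, 2 were lower with TGZ, 2 with BSO plus TGZ, 1 with RGZ and 3 with BSO plus RGZ, and of 7 genes more abundant in male liver 2, 2, 2 and 3 were lower. Over all genes, 9.48%, 5.90%, 1.67% and 3.78% were lower in the same order. None of either list was higher than vehicle by 2-fold. The part of these markers in the members' values was not tested.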

How the data were processed

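Cy3 intensity of 5 Agilent arrays was used as the authors deposited it: per the file headers, the processed signal of Feature Extraction 12.0.3.1 is background-subtracted and not scaled between arrays. The deposited log2 value table equals log2 of that intensity plus 1 constant per array (column medians 4.02, 4.01, 4.07, 4.00 and 3.92); it is not centred per gene, and how the constants were chosen was not given by any source used here. Names of TGZ, RGZ and BSO come from the study's title and general knowledge.

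From the intensities, spots of a probe were averaged, log2 was taken, and each array's 75th percentile over non-control probes was subtracted (141.5 to 208.4 in signal). A gene was represented by its probe with the highest mean. A gene well above background on 1 of 2 arrays was set against the dimmer array's floor, giving a bound ("at least"). The number of arrays limits precision. Intervals used the software's spot error (median SD of a difference 0.20). No member spot was saturated. Alternatives were median and spike-in scaling, normexp (offset 50) with quantile normalization in limma 3.58.1 (R 4.3.3), no filter, all 5 arrays above background, the value table, and the mean over probes. Coordinates are mm9 per the file headers; promoters and gene ends are RefSeq GRCm38.p6, and builds were not mixed. All 35 names matched the RefSeq table. Members past 2-fold in any comparison are given in all 5 arrays; others by range, with those nearest 2-fold. Members and lists were chosen with earlier results of these data known. Some genes of the lists are not reported here.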

Additional observations from a re-analysis of the deposited data

Results flagged for a closer look

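Added BSO gave Sult1e1 a log2 difference of -0.27 beside TGZ, with an interval of spot error (-0.67 to 0.13) that includes 0, and of 0.87 beside RGZ (0.46 to 1.27). The difference between these effects was -1.14. Spike-in scaling moves all genes by 0.26 between BSO plus TGZ and TGZ. With 1 array per group this difference was not tested, and no group received BSO alone.

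A probe outside the name rule gave a signal on 1 array. It is described in the files as Ugt1a8 but carries a transcript accession in place of a gene name, and lies on chromosome 1 at 89985041 to 89985100 (mm9). It was well above background with BSO plus TGZ only, at -2.40, against -5.66 with vehicle, -5.85 with TGZ, -6.28 with RGZ and -6.20 with BSO plus RGZ. This made it at least 3.39-fold higher with BSO plus TGZ than with vehicle, at least 1.76 on the log2 scale. It was seen on 1 array and has no second probe here.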

How the results depend on the processing

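Counts of members past 2-fold were recomputed under 7 alternatives for 16 counts, and 97 stayed within 1.5 times while 15 moved. With normexp, whose offset compresses dim signals, the UGT counts were 0 with TGZ, 0 with BSO plus TGZ, 0 with BSO plus RGZ and 1 between BSO plus TGZ and BSO plus RGZ, and the SULT counts 3 with BSO plus RGZ and 0 between BSO plus RGZ and RGZ. With spike-in scaling, UGT counts were 2 with TGZ, 1 between BSO plus TGZ and TGZ and 3 between TGZ and RGZ, and SULT counts 5 with BSO plus TGZ and 4 between TGZ and RGZ. Without the filter on dim probes the SULT counts were 2 between BSO plus TGZ and TGZ and 5 between TGZ and RGZ, with the mean over probes 1 between BSO plus TGZ and TGZ, and with genes above background on all 5 arrays 0 between BSO plus RGZ and RGZ. Of 26 calls of single members none reversed under the alternatives that gave a value (the 3 of Sult3a2 have none with genes above background on all 5 arrays), 11 fell short of 2-fold with normexp, 1 with median scaling, 1 with spike-in scaling and 1 with the mean over probes.

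Spike-in scaling moved the median of all genes by -0.45 with TGZ, -0.19 with BSO plus TGZ, 0.13 with BSO plus RGZ, 0.26 between BSO plus TGZ and TGZ, -0.54 between TGZ and RGZ and -0.32 between BSO plus TGZ and BSO plus RGZ, and median scaling by 0.10 with BSO plus RGZ and -0.16 between BSO plus TGZ and BSO plus RGZ. Spike-in scaling turned the split of all genes past 2-fold from 2147 higher and 2021 lower to 1210 and 4250 with TGZ, from 1780 and 1265 to 1393 and 1963 with BSO plus TGZ, from 353 and 356 to 455 and 260 with RGZ, from 646 and 802 to 901 and 578 with BSO plus RGZ (844 and 622 with median scaling), from 1985 and 1806 to 972 and 4554 between TGZ and RGZ, from 1775 and 1124 to 1071 and 2396 between BSO plus TGZ and BSO plus RGZ (1368 and 1661 with median scaling), and from 326 and 103 to 673 and 42 between BSO plus TGZ and TGZ (257 and 145 with median scaling). Between BSO plus RGZ and RGZ median scaling turned it from 111 and 154 to 154 and 104. No paired analysis was possible because each group has 1 pooled array. The scanner's error limits differences under about 0.40 on the log2 scale, and nothing here measures the spread between animals.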
